A study of Caenorhabditis elegans with 9 samples.

Results

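Nuclear hormone receptors are transcription factors that bind DNA through a zinc finger domain and can bind small lipophilic molecules, such as steroids and fatty acids, through a second domain. The family is much larger in C. elegans than in insects or mammals. A small group of its members has orthologs in other animals and acts in moulting, development and hormone signalling, whereas most members arose by expansion of a nematode branch, and several of these control fat metabolism, nutrient sensing and detoxification in the intestine. Genes were taken as members if they code for protein and carry the symbol nhr- followed by a number in the WBcel235 RefSeq gene table, with nhr-49 left out and daf-12 added. This gave 269 genes of 19959 protein-coding genes, or 1.35%, and all 269 had a value in the data. The rule reads gene names and no measured value, but it and the lists of receptors by role below were drawn up with earlier results of these data known.

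The study asked how alternate day fasting (ADF), a diet that switches between fasting days and feeding days, acts on worms at different ages. RNA of whole bodies was sequenced from adult hermaphrodites of the wild-type (WT) strain N2, the standard laboratory strain, whose eggs were hatched in M9 buffer and kept at 20°C. Worms of both ADF groups were fasted on alternate days for 7 days. The 3 groups of young stage ADF, middle stage ADF and control comprised 3 libraries each. The values below come from 1 of these 9 libraries, replicate 1 of young stage ADF, and the other 8 were not analysed here. They describe the levels of the receptor genes within worms of young stage ADF. Whether the RNA was taken on a feeding day or a fasting day is not stated in the paper's methods. No effect of fasting was measured, and no replicate error, difference between groups or p-value can be given.

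Levels are in FPKM, fragments scaled to gene length and to library size, so genes of different length can be compared. The fragments behind the values were recovered from the FPKM, gene length and library total of 18205113. For 9 receptors above 0, and for some other genes, no whole number was found and a rounded value was used. Each interval given is a 95% Poisson interval that covers counting error only. It is exact for whole fragments and approximate for rounded values. In whole worms, few cells with much of an RNA and many cells with little of it cannot be told apart. Of 15 marker genes of intestine, hypodermis, body wall muscle, neurons, germline, sperm and pharynx, 14 reached 1 FPKM, from 1.95 FPKM for the pharyngeal myosin myo-2 to 691 FPKM for the adult cuticle collagen col-19. The sperm gene spe-9 had 0.217 FPKM.

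Most nuclear hormone receptor genes were present at low levels. Of the 269 genes, 132 (49.1%) had at least 1 FPKM, against 56.9% of all protein-coding genes. A further 63 lay between 0.1 and 1 FPKM, 28 lay above 0 but under 0.1 FPKM, and 46 were listed at 0. The median was 0.946 FPKM, against 1.93 FPKM for all protein-coding genes. The difference was wider at the upper end, where 24 receptor genes (8.92%) reached 10 FPKM, against 33.8% of protein-coding genes. The share above 0 was 82.9% for the receptors and 83.4% for all protein-coding genes. Hence the family was listed above 0 about as often as other genes, but its levels ended lower. In sum the receptors held 1024 FPKM, or 0.121% of all FPKM, and 37237 fragments.

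**Figure D1:**
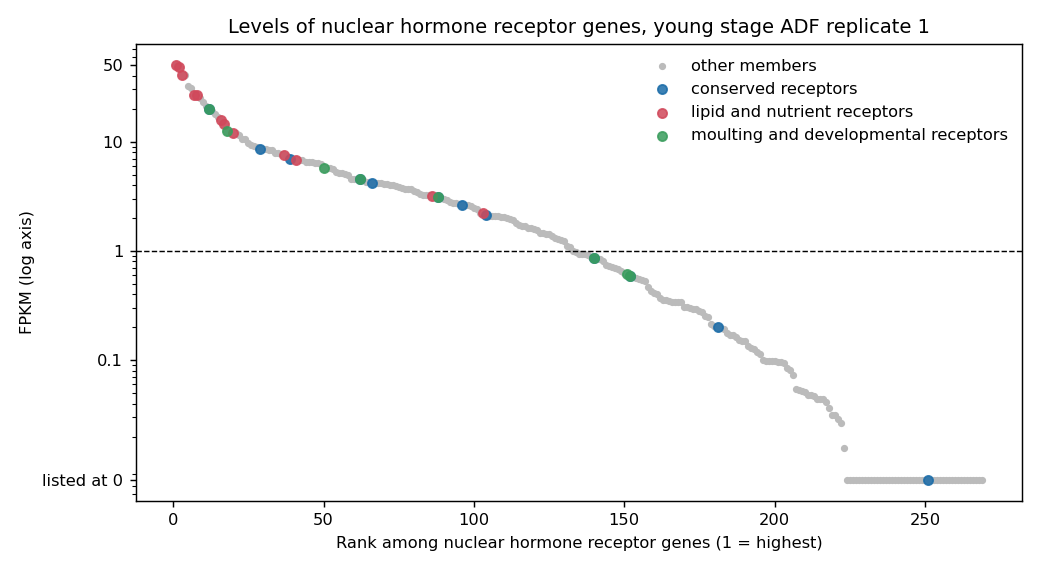
FPKM (log axis) of the 269 receptor genes by rank in replicate 1 of young stage ADF. Each point is a gene, genes listed at 0 sit on the lowest line, the dashed line marks 1 FPKM, and colours mark the lists of receptors by role, where a gene on more than 1 list has the colour of the last. The line falls from 50.5 FPKM past 1 FPKM after rank 132, and 46 genes lie at 0.

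Of the 10 highest receptors, 5 were on the list of lipid and nutrient receptors and 5 were on none of the lists by role. The highest level was that of nhr-66, a receptor of sphingolipid and lipid remodelling genes, with 50.5 FPKM (49.1 to 52.0, 4641 fragments). Next came nhr-68, which switches on the propionate shunt when vitamin B12 is low, with 47.8 FPKM (45.1 to 50.5, 1207 fragments). The intervals of both genes overlapped, so counting error alone leaves their order unsettled. They were followed by nhr-86, known from intestinal immune defence, with 40.9 FPKM (38.5 to 43.5), and by nhr-97 with 40.9 FPKM (39.5 to 42.3). The other genes among the 10 highest were nhr-17 (32.1 FPKM), nhr-274 (30.9 FPKM), nhr-10 (26.7 FPKM), nhr-114 (26.5 FPKM), nhr-46 (24.9 FPKM) and nhr-71 (23.01 FPKM). Of these, nhr-10 acts with nhr-68 on the propionate shunt, and nhr-114 is known for the response to low vitamin B12. In 6 of the 9 steps between these 10 genes, the intervals of consecutive genes overlapped. The 10 genes held 33.6% of the FPKM of the whole family. Even the highest receptor was passed by 3218 protein-coding genes, or 16.1% of them. Ranked by fragments without division by length, 9 of the 10 genes stayed among the highest 10, with nhr-23 in place of nhr-10.

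All 12 genes of the lipid and nutrient list reached 1 FPKM, against 56.9% of all protein-coding genes. Their median was 15.1 FPKM, against 0.946 FPKM for the family. The list was drawn up with earlier results of these data known, and the part of this choice was not tested. The list made up 8 of the 24 receptors with at least 10 FPKM. These are 66.7% of the list, against 33.8% of all protein-coding genes at that level. Besides nhr-66, nhr-68, nhr-86, nhr-10 and nhr-114, the receptor nhr-69, which regulates insulin-like signalling, had 15.7 FPKM (14.2 to 17.4) and nhr-13, a partner in the control of fatty acid desaturase genes, had 14.5 FPKM (13.1 to 15.9). The gene nhr-76, which acts in serotonin-driven fat loss in the intestine, had 12.01 FPKM (10.8 to 13.3). The intervals of these last 3 genes overlapped from each to the next. The fat metabolism receptor nhr-64 had 7.60 FPKM (6.51 to 8.81), and nhr-80, which drives desaturase expression and links germline loss to long life, had 6.85 FPKM (5.996 to 7.80). The lowest levels of the list were those of nhr-57, a known target of the hypoxia factor HIF-1, at 3.17 FPKM (2.55 to 3.89) and nhr-62, needed for long life under dietary restriction, at 2.22 FPKM (1.72 to 2.81). For nhr-57 the fragments are a rounded value, so its interval is approximate. With 67 fragments, nhr-62 was thus the lowest of its list but above the family median.

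Conserved receptors spread over a wide range. Of 12 genes, 8 (66.7%) reached 1 FPKM, against 56.9% of all protein-coding genes, and the median was 2.90 FPKM. With so few genes, the share at 1 FPKM does not set the list apart. The ROR ortholog nhr-23, a driver of moulting, had the highest level at 20.0 FPKM (18.9 to 21.2, 1133 fragments). The 3 genes of the branch related to vitamin D and xenobiotic receptors were all above 1 FPKM, with 8.65 FPKM for nhr-48 (7.92 to 9.43), 6.95 FPKM for nhr-8 (6.09 to 7.88) and 4.20 FPKM for daf-12 (3.77 to 4.67). The receptor DAF-12 binds dafachronic acids and decides between reproductive growth and dauer arrest, and its gene (WBcel235 chromosome X, 10644409 to 10666875, plus strand) ranked at place 66 of the family with 342 fragments. Below it came nhr-25, the ortholog of SF-1 and LRH-1, with 3.14 FPKM (2.65 to 3.69), the germ cell nuclear factor relative nhr-91 with 2.65 FPKM (2.13 to 3.26) and the NR4A ortholog nhr-6, which acts in spermatheca development, with 2.12 FPKM (1.71 to 2.59). The TR2/TR4 relative nhr-41 had 4.51 FPKM (3.95 to 5.12), and its interval overlapped that of daf-12.

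The other conserved receptors were low. The Tailless ortholog nhr-67, which acts in neurons and in the anchor cell, had 0.866 FPKM (0.560 to 1.28), so counting error spans 1 FPKM. The Rev-Erb relative nhr-85, which acts in developmental timing, had 0.589 FPKM (0.388 to 0.858, 27 fragments), and 33.2% of its exon bases are shared with npr-14 on the opposite strand, which had 0.0290 FPKM. The gene nhr-239 had 0.199 FPKM from 3 fragments (0.0410 to 0.582), and nhr-111 was listed at 0. At these depths, a level under 1 FPKM rests on few fragments and does not show absence.

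Of 8 receptors of moulting and development, 5 (62.5%) reached 1 FPKM, with a median of 3.82 FPKM. The share for all protein-coding genes was 56.9%, and 8 genes are too few to set the list apart from it. The list shares nhr-23, nhr-25, nhr-41, nhr-67 and nhr-85 with the conserved receptors. Of the remaining genes, nhr-40, needed for muscle development and movement, had 12.5 FPKM (11.3 to 13.7), and nhr-2, an embryonic receptor, had 5.74 FPKM (4.97 to 6.59). The gene nhr-60, known from the seam cells of the hypodermis, had 0.610 FPKM (0.349 to 0.991). It shares 7.22% of its exon bases with F57A10.4 on the opposite strand, which had 64.7 FPKM, and the part of such shared bases in its value was not tested. Within the moulting genes, nhr-23 and nhr-85 thus lay far apart, and their intervals did not overlap.

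**Figure D2:**
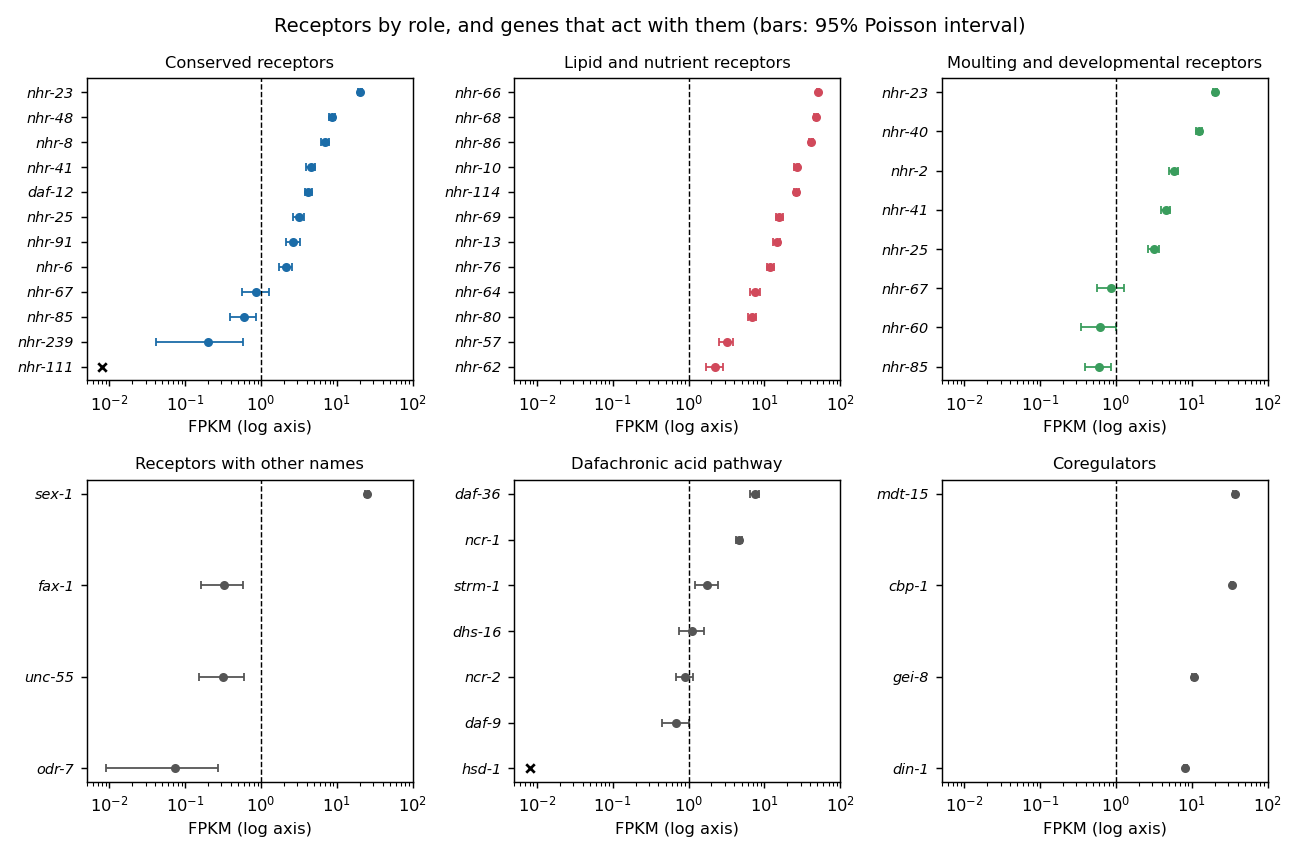
FPKM (log axis) of the receptor genes by role, and of receptors with other names, dafachronic acid genes and coregulators. Points are the values of the 1 library, bars are 95% Poisson intervals, crosses are genes listed at 0 and dashed lines mark 1 FPKM. All 12 lipid and nutrient receptors lie above the line, and 4 of the 12 conserved receptors lie under it.

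The 3 lists by role were drawn up with earlier results of these data known. The part of this choice in their levels was not tested. They leave out nhr-49 and the 4 receptors named for a phenotype, of which 1 reached 1 FPKM. The lists hold 27 genes in all. Of these, 22 (81.5%) reached 1 FPKM, with a median of 6.85 FPKM. Of the 242 receptors on no list, 110 (45.5%) did so, with a median of 0.730 FPKM. Symbol numbers followed the same order. Among symbols up to nhr-100, 66 of 94 genes reached 1 FPKM, among those from nhr-101 to nhr-200 it was 48 of 94, and above nhr-200 it was 17 of 80, with medians of 3.71, 1.17 and 0.107 FPKM. Thus the receptors that were numbered last were mostly under 1 FPKM. An exception is nhr-274, the gene with the sixth highest level of the family.

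Of the genes that act with the receptors, all 4 coregulators reached 1 FPKM. Of the 4 coregulators, 3 reached 10 FPKM, with 36.7 FPKM for the Mediator subunit mdt-15 (35.3 to 38.2), 33.4 FPKM for the acetyltransferase cbp-1 (32.4 to 34.4), and 10.6 FPKM for gei-8, the NCoR relative (9.99 to 11.2). The corepressor of DAF-12, din-1, had 8.23 FPKM (7.82 to 8.66). Of these genes, mdt-15 lay above all but 4 receptors. In the dafachronic acid pathway, 4 of 7 genes (57.1%) reached 1 FPKM, about the share of 56.9% for all protein-coding genes. The Rieske oxygenase daf-36, which takes the first step from cholesterol, had 7.45 FPKM (6.48 to 8.52), and the sterol transporter ncr-1 had 4.66 FPKM (4.21 to 5.14). The methyltransferase strm-1, which lowers dafachronic acid, had 1.76 FPKM (1.23 to 2.43), and the dehydrogenase dhs-16 had 1.12 FPKM (0.744 to 1.62). The second transporter ncr-2 had 0.892 FPKM (0.687 to 1.14). The last enzyme of the pathway, the cytochrome P450 daf-9, had 0.693 FPKM (0.452 to 1.01), and hsd-1 was listed at 0. So the gene of the receptor daf-12 stood above that of the enzyme which makes its ligand, and the intervals of daf-12 and daf-9 did not overlap.

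Of 5 known target genes of lipid and nutrient receptors, 4 reached 10 FPKM and 1 was listed at 0. The fatty acid desaturase gene fat-6 had 307 FPKM (299 to 314), its near relative fat-7 had 35.2 FPKM (32.7 to 37.9) and fat-5 had 16.8 FPKM (15.02 to 18.7). Of the propionate shunt genes controlled by nhr-10 and nhr-68, hphd-1 had 163 FPKM (158 to 167), whereas acdh-1 was listed at 0. A value of 0 may be a failed estimate here, because 8 of 78 ribosomal protein genes, which every cell uses, were also listed at 0. For the same reason no upper limit is given for the 46 receptors listed at 0.

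The 4 nuclear hormone receptors named for a phenotype, which are not members of the set, were split. The X chromosome counting gene sex-1 had 24.8 FPKM (23.2 to 26.5), a level reached by 9 members. The neuronal receptors were low, with 0.326 FPKM for fax-1 (0.163 to 0.583), 0.319 FPKM for unc-55 (0.153 to 0.587) and 0.0741 FPKM for the olfactory receptor factor odr-7 (0.00898 to 0.268). The intervals of fax-1 and unc-55 overlapped almost in full.

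Other gene families chosen by symbol, after the receptor values were known, give a scale for these levels. Of the homeobox genes with the symbol ceh-, 36 of 63 (57.1%) reached 1 FPKM, of the helix-loop-helix genes hlh- it was 10 of 25 (40%), and of the T-box genes tbx- it was 9 of 19 (47.4%). At this threshold the share of 49.1% for the receptors lay between these families of transcription factors. At 10 FPKM, the share was 8.92% for the receptors and 20.6% (13 of 63) for ceh-. It was 12% (3 of 25) for hlh- and 10.5% (2 of 19) for tbx-, too few genes to settle their order against the receptors. The share at 1 FPKM was far from the chemoreceptor families, which are similarly large and nematode-expanded, where 3 of 220 srh genes (1.36%) and 2 of 193 str genes (1.04%) reached 1 FPKM.

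**Figure D3:**
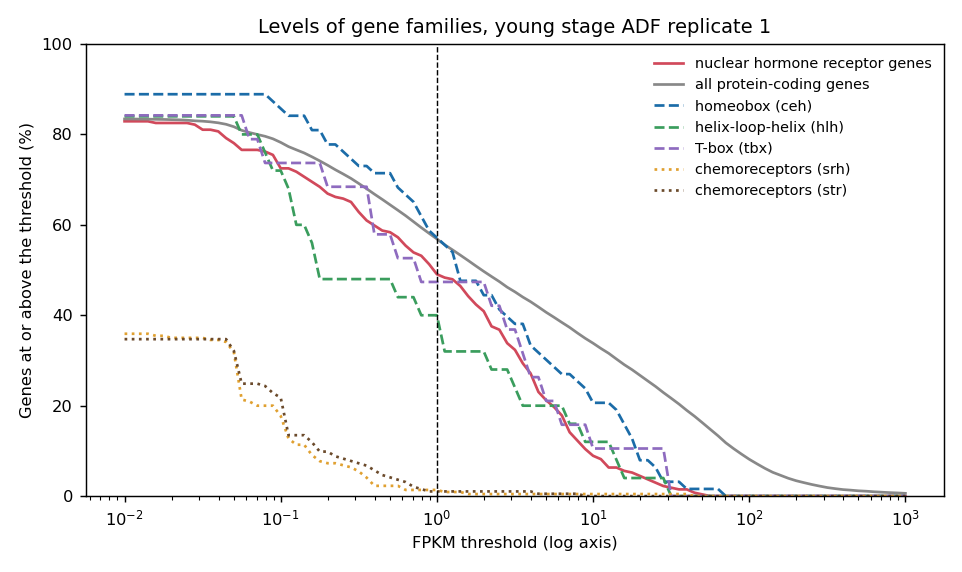
Share of genes (%) at or above each FPKM threshold (log axis) for nuclear hormone receptors, all protein-coding genes and families chosen by symbol. Lines are families, and the dashed line marks 1 FPKM, where the receptors stand at 49.1%, all protein-coding genes at 56.9% and the chemoreceptors near 1%.

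The receptor genes are unevenly placed in the genome. Chromosome V holds 167 of the 269 genes (62.1%), against 25.02% of all protein-coding genes. On chromosome V, 79 of 167 receptors (47.3%) reached 1 FPKM, against 42.2% of all protein-coding genes there. On chromosome X it was 17 of 24 (70.8%) against 61%, on II 8 of 15 (53.3%) against 56.3%, on III 5 of 8 (62.5%) against 70.2% and on IV 18 of 33 (54.5%) against 57.5%. Chromosome I stood apart, with 5 of 22 receptors (22.7%) against 66.2% of its protein-coding genes. The median there was 0.0953 FPKM, against 4.20 FPKM for the receptors on X and 0.885 FPKM for those on V. Of the genes listed at 0, 27 lie on V, 8 on I, 6 on IV, 2 on III, 2 on X and 1 on II.

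**Figure D4:**
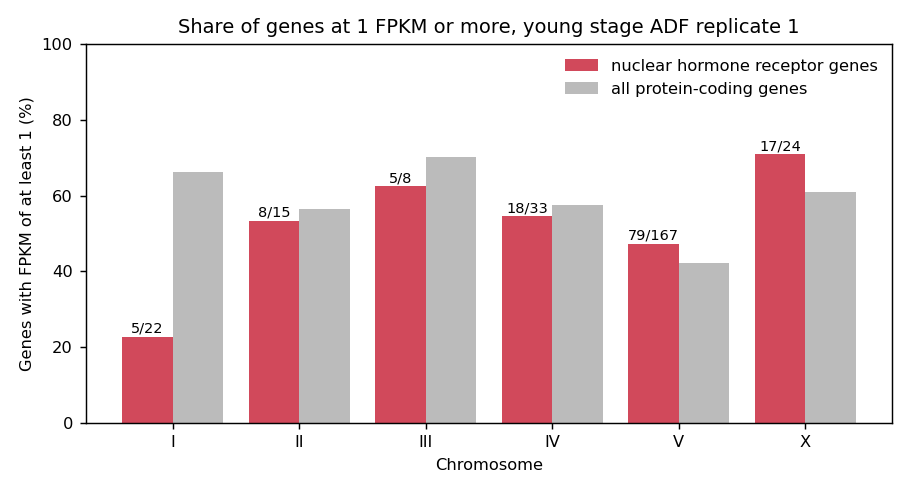
Share of genes (%) with at least 1 FPKM per chromosome, for nuclear hormone receptor genes (red, with the counts above the bars) and all protein-coding genes (grey). Chromosome I has 5 of 22 receptors at 1 FPKM or more against 66.2% of its protein-coding genes, and chromosome X has 17 of 24 against 61%.

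The low share on chromosome I belonged to its right part. The 5 genes that reached 1 FPKM, nhr-64, nhr-2, nhr-23, nhr-62 and nhr-69, start between 3101983 and 9879183 and had 2.22 to 20.0 FPKM. The other 17 receptors begin at 11429014 and beyond, and none of them reached 1 FPKM. Their highest level was 0.629 FPKM (0.335 to 1.08) for nhr-74, and all 17 together had 60 fragments. Among all 745 protein-coding genes beyond 11 Mb of the chromosome, 382 (51.3%) reached 1 FPKM. The split at 11 Mb was chosen after the values were seen. Of the 17 genes, only nhr-85 belongs to a list of known roles.

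Many receptor genes lie side by side. With neighbours joined where the gap between them is at most 10 kb, 157 of the 269 genes fell into 43 runs, and 12 runs held 4 or more genes, up to 12 genes in a run on chromosome V. The genes that stood alone reached 1 FPKM in 66 of 112 cases (58.9%), with a median of 2.17 FPKM, against 66 of 157 (42.0%) and 0.539 FPKM for genes in runs. In the runs of 4 or more it was 41 of 85 (48.2%), with a median of 0.735 FPKM, close to the 49.1% of the family. The share over all protein-coding genes was 56.9%. Neighbours in a run tended to share their side of the threshold. Of the pairs of neighbours, 88 (77.2%) lay on the same side of 1 FPKM, 34 pairs above it and 54 under it. Receptors listed at 0 counted as under 1 FPKM here, including those whose 0 may be a failed estimate. Over all possible pairs of receptors the share was 49.8%, and over 19198 pairs of adjacent protein-coding genes at the same gap it was 65.0%. Pairs on the same strand (67 of 89) and pairs on opposite strands (21 of 25) both did so in most cases. The share was 77.2% on chromosome V and 77.3% elsewhere. Gene copies in a run can share sequence, and how fragments that fit several copies were assigned is not stated, so their part in this likeness was not tested.

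Whole runs differed from each other. The members of runs named here were chosen after their values were seen. On chromosome V from 2210510 to 2235180 lie 9 receptors, from nhr-133 to nhr-96, and all 9 were between 2.07 and 6.72 FPKM, the highest being nhr-18 with 147 fragments. Of 8 other protein-coding genes inside or within 10 kb of this run, 2 reached 1 FPKM. The reverse was seen in the 9 receptors from nhr-185 to nhr-124 at 3844429 to 3886204 of chromosome V, where none reached 1 FPKM. Of these, nhr-185 was listed at 0. It lies among the last entries of the data, which are all at 0, so it may not have been quantified. The highest was nhr-157 with 0.349 FPKM (0.140 to 0.720), and the run had 27 fragments in all. Here 4 of 6 other genes in or near the run reached 1 FPKM, with a median of 14.1 FPKM. Thus these runs of equal size stood apart from each other and each also from the genes around it.

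Other runs were mixed. In the largest run, at 451451 to 497297 of chromosome V, 9 of 12 receptors reached 1 FPKM, the highest being nhr-203 with 7.93 FPKM (6.89 to 9.08), while nhr-202 had 0.0312 FPKM and nhr-201 was listed at 0. In the 8 receptors at 15674007 to 15702363 of chromosome V, only the outermost gene nhr-53 was above the threshold, with 5.65 FPKM (4.68 to 6.76, 119 of the 128 fragments of the run), and 4 were listed at 0. A similar jump was seen in the 5 genes at 1613892 to 1645298 of chromosome IV. There nhr-274 had 30.9 FPKM (29.2 to 32.8, 1142 fragments), whereas nhr-87 had 0.0315 FPKM and nhr-146 was listed at 0. Both nhr-146 and nhr-201 lie among the last 21584 entries, which are all at 0, so they may not have been quantified. In all, 10 of the 46 receptors listed at 0 lie there. In the 7 genes at 6980591 to 7000651 of chromosome V, the outer genes nhr-161 and nhr-42 had 7.91 and 11.6 FPKM, and 4 of the genes between them lay under 1 FPKM. Of the genes between, nhr-107 had 3.16 FPKM, and nhr-140 was listed at 0 among those last entries. In each of these 4 runs, some genes thus lay well above others of the same run. The run of nhr-26, nhr-214, nhr-272 and nhr-27 on chromosome X had 2 fragments in all and none of its genes at 1 FPKM. Of these, nhr-272 and nhr-27 were listed at 0. As nhr-27 also lies among those last entries, it may not have been quantified.

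**Figure D5:**
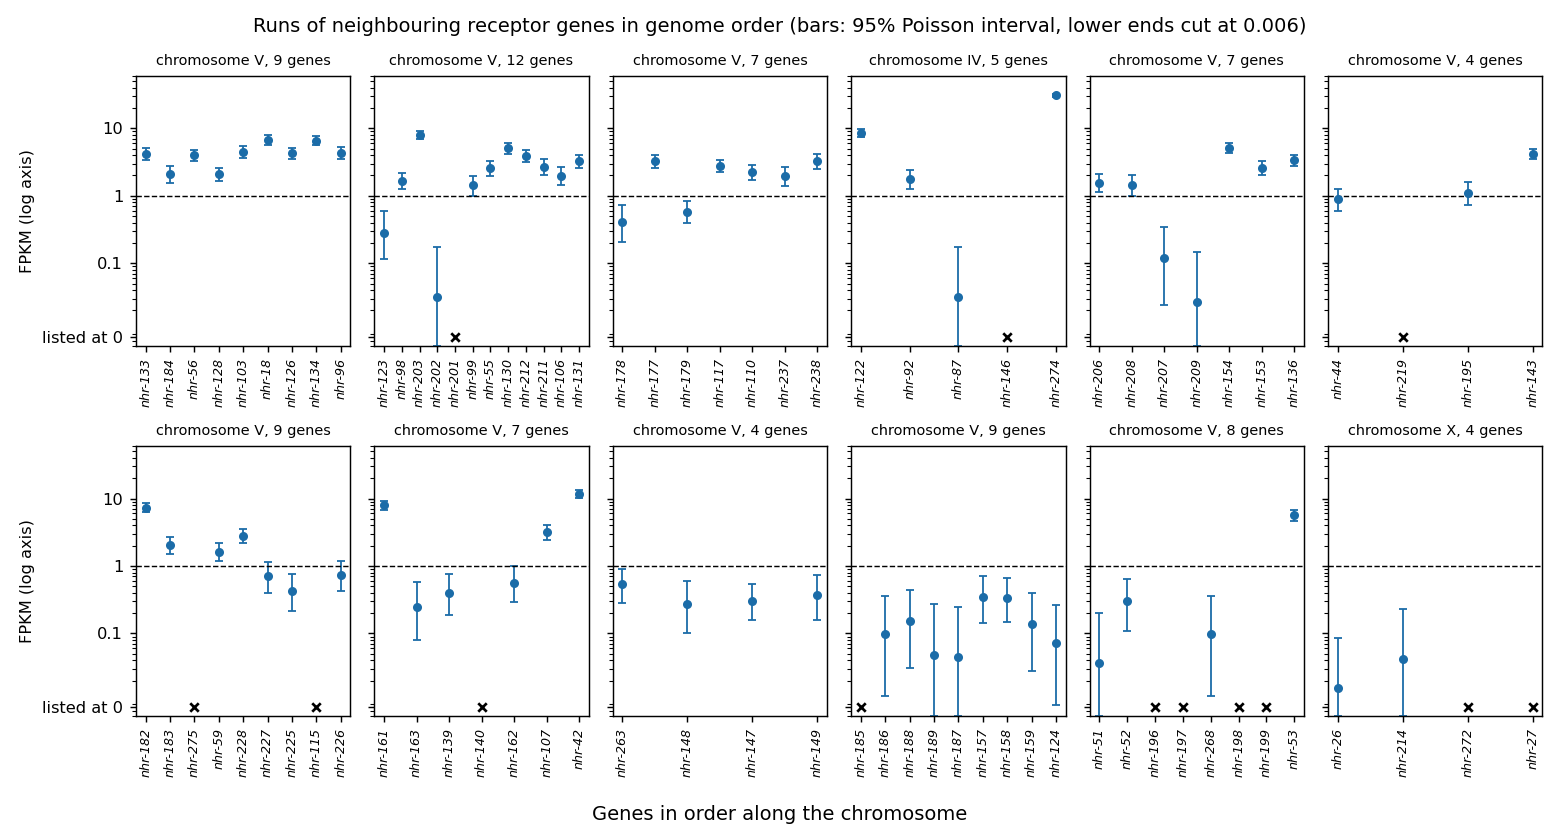
FPKM (log axis) of the receptor genes in the 12 runs of 4 or more neighbours, in the order of the genome, each panel a run. Points are the values of the 1 library, bars are 95% Poisson intervals, crosses are genes listed at 0 and dashed lines mark 1 FPKM. The 9 genes from nhr-133 to nhr-96 all lie above the line, and the 9 genes from nhr-185 to nhr-124 all lie under it. Of the latter, nhr-185 is listed at 0 and may not have been quantified.

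The levels also went along with the gene models. Receptors with 2 or more annotated transcripts reached 1 FPKM in 75 of 107 cases (70.1%), and those with 1 transcript in 57 of 162 (35.2%). Among all protein-coding genes, the shares were 73.5% and 49.8%. Of the 21 receptors whose gene model has no UTR, none reached 1 FPKM, 8 were above 0 and the highest had 0.349 FPKM. For all protein-coding genes without UTR the share at 1 FPKM was 12.3%. Annotation of transcripts and UTRs itself rests in part on observed RNA, so these features are not independent of expression.

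Coding length, taken from the longest transcript, separated the receptors more clearly. Among the receptors with the shortest coding length, up to the lower quartile of 1059 bases, 6 of 68 receptors (8.82%) reached 1 FPKM, with a median of 0.0542 FPKM. Among those with the longest, from the upper quartile of 1272 bases, it was 59 of 69 (85.5%), with a median of 4.20 FPKM. The receptors between these lengths lay in the middle, with 67 of 132 (50.8%) and 1.10 FPKM. Over all protein-coding genes of the same length ranges, the shares were 49.4% and 71.8%. In the narrower range from 900 to 1059 bases, 6 of 54 receptors (11.1%) reached 1 FPKM, against 37.9% of 2937 protein-coding genes. The median coding length was 1252.5 bases for receptors at 1 FPKM or more and 1036.5 bases for those listed at 0. FPKM is already divided by length, and the part of gene models that are incomplete in this relation was not tested.

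The depth sets how far single receptors can be read. Of the 223 genes above 0, 38 had 1 to 3 fragments, 60 had fewer than 10 and 76 had more than 100. The interval of 26 genes spanned 1 FPKM. Just above the threshold were nhr-195 with 1.11 FPKM (0.731 to 1.61) and nhr-58 with 1.09 FPKM (0.709 to 1.59), and just under it nhr-150 with 0.993 FPKM (0.630 to 1.49) and nhr-101 with 0.976 FPKM (0.625 to 1.45). These 4 genes cannot be placed on either side by their counts. Of the exon bases of nhr-101, 63.4% are shared with H12C20.7 on the opposite strand. The lowest levels above 0 were those of nhr-26 (0.0156 FPKM), nhr-209 (0.0264 FPKM), nhr-247 (0.0287 FPKM), nhr-202 (0.0312 FPKM) and nhr-87 (0.0315 FPKM). The first 3 of these rest on 1 fragment each, whereas for nhr-202 and nhr-87 no whole number of fragments was recovered and 1 is a rounded value.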

How the data were processed

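RNA of whole worms was measured in replicate 1 of young stage ADF. The authors deposited FPKM values per gene. The labels name Bowtie 0.12.2, StringTie, WBcel235 and the Illumina TruSeq RNA kit, whereas the methods name HISAT2, Ballgown and the KAPA Stranded kit, so whether reads were counted by strand is open. Genes that overlap, 65 of the receptors, are uncertain, 20 of them with over 5% of their exon bases shared. Assignment of fragments shared by gene copies is not stated.

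The table holds 45495 gene numbers, beside 24 mitochondrial entries that name no gene (0.103% of all FPKM), which were left out. Symbols came from RefSeq (WBcel235) by gene number, and gene models from Ensembl release 115, in which all 269 receptors were found. Another 14 nhr symbols are no protein-coding genes in RefSeq and have no entry here. A gene was counted as detected from 1 FPKM. Fragments were taken as the whole number that fits the FPKM at the length closest to the annotated one, from 0.67 to 1.5 times that length. The length lay within 10% of the annotation for 88.3% of the receptors above 0. For 9 receptors above 0 no whole number was found, and the rounded value at the annotated length was used. In 3000 simulated entries, 96.97% of fragments were right. This share holds for the simulated entries only, and the share that is right among the real values was not tested.

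The rule for named genes took daf-12, every gene of the lists, the 10 highest and 5 lowest receptors above 0, and 2 on each side of 1 FPKM. The family and its lists were set with results of these data already known. Classes of zinc fingers, and names and alternatives by protein identity, were not run, since no sequences were used here. With 1 library, no test was made. Values were computed in Python 3.11.15 with pandas 2.3.3, numpy 2.4.6 and scipy 1.17.1 and drawn with matplotlib 3.10.9.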

Additional observations from a re-analysis of the deposited data

How the results depend on the processing

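No paired analysis was possible because the values come from a single library, and for the same reason no replicate could be left out. The number of receptors detected was 195 at 0.1 FPKM, 123 where the lower end of the interval had to reach 1 FPKM and 140 on the TPM scale. Without the genes that overlap another gene it was 96 of a smaller set of 204 (47.1%), against 132 of 269 (49.1%). These counts were all within 1.5 times the 132 at 1 FPKM. With any value above 0 the number was 223, and the median of the genes above 0 was 1.97 FPKM. The share of receptors was 72.5% at 0.1 FPKM and 82.9% above 0, against 78.2% and 83.4% of all protein-coding genes. On chromosome I, the count of 5 became 9 at 0.1 FPKM and 14 above 0, or 40.9% and 63.6%. Among all protein-coding genes there, the shares were 84.6% and 88.8%. On chromosome II, the count of 8 became 13 and 14 (86.7% and 93.3%), against 78.9% and 83.8% of protein-coding genes there. On chromosome V, the count of 79 became 123 and 140 (73.7% and 83.8%), against 65.1% and 72.7%. At 0.1 FPKM, all 8 moulting and developmental receptors and 3 of the 4 receptors with other names were detected. So few genes do not set these lists apart from the 78.2% of all protein-coding genes. The counts of the other lists and of chromosomes III, IV and X stayed within 1.5 times. Joining neighbours at gaps of 5 or 20 kb, chosen after seeing the data, gave 79.0% and 76.4% of neighbouring pairs on the same side of 1 FPKM. The alternative without genes of near-identical protein, and the zinc finger classes, were not run. Depth limits the reading of the 60 receptors with fewer than 10 fragments.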
